A study of Mus musculus with 2 samples.

Results

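Microtubule-associated proteins bind the polymer tracks that give axons and dendrites their shape. Tau, MAP2 and MAP4 are related proteins that hold the microtubule wall through short repeats near the C terminus; tau is known mainly from axons, MAP2 from dendrites, and MAP4 from most cell types. MAP1A, MAP1B and MAP1S are members of a second family, made as one precursor that is cut into a heavy and a light chain, and MAP6 (STOP) protects microtubules from cold. The end-binding proteins EB1, EB2 and EB3, encoded by Mapre1, Mapre2 and Mapre3, sit on growing microtubule tips. The 10 genes examined were Mapt (tau), Map2, Map4, Map6, Map1a, Map1b, Map1s, Mapre1, Mapre2 and Mapre3, taken by their annotated names from 18311 mouse genes with reads. All 10 had reads in both libraries, in 189 transcript models in replicate 1 and 157 in replicate 2.

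Long-read RNA sequencing, which reads cDNA molecules end to end where they are intact, was available for 2 libraries of a single group, hippocampus (its layer, in the labels) of 14-day-old male B6CASTF1/J mice, the first-generation cross of C57BL/6J with CAST/EiJ, with no treatment named. Each library pooled RNA of 3 males, 2 µg in all, with ERCC and SIRV spike-ins. The animals listed for the individual samples differ, whereas the text on the experiment lists those of replicate 1 for both. The SDs therefore measure the spread of these libraries, which may be technical, and the p-values measure departure from counting error alone. No contrast between conditions exists, and each test below asks only whether the libraries differ by more than counting error.

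The libraries held 832263 reads (replicate 1) and 753385 reads (replicate 2). Without ERCC reads, 821324 and 743862 remained, called mouse reads here. All 6 markers of hippocampal pyramidal and granule cells had reads, summing to 609 and 659 CPM (reads per 1000000 mouse reads). Of 6 oligodendrocyte markers, 5 were deep enough to test. All 5 were called lower in replicate 2 (Fisher's exact test, adjusted p under 0.05), as were 74 of 8875 genes tested. The summed level of the 6 was 5708 CPM against 2855 CPM. Mog, a myelin surface protein of mature oligodendrocytes, had 4 and 2 reads. Of 8 neuron markers, 2 (Nefl and Snap25) were called lower in replicate 2 by the same test, and the summed level was 6169 against 5414 CPM. Slc17a7, Nefm and Syt1 were lower without being called (log2 ratios of -0.14, -0.085 and -0.060). Rbfox3, Tubb3 and Gad1 were higher without being called (0.098, 0.067 and 0.34). The part these differences play in the values below was not tested.

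The members together took 1694 ± 1.13 CPM (SD, n = 2), and their levels spanned 10.5-fold. A long read is counted once whatever its length, so CPM was not divided by length; the length of the annotated transcript with each gene's longest complete coding sequence is given beside its level. In bulk tissue, fewer cells of a type and less RNA per cell cannot be told apart.

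Map4 led, with 358 reads in replicate 1 and 314 in replicate 2, a level of 429 ± 9.73 CPM (SD, n = 2; transcript of 6091 bases). Of the Map4 reads, 189 and 173 belonged to models that end before the exons of the microtubule-binding repeats, as described further down. The end-binding genes came next. Mapre1, whose product EB1 recruits other proteins to growing tips, had 224 and 198 reads, 269 ± 4.63 CPM (7336 bases). Mapre2 (EB2) had 192 and 178 reads, 237 ± 3.91 CPM (4026 bases), and Mapre3 (EB3, enriched in neurons) had 206 and 157 reads, 231 ± 28.1 CPM (2021 bases). Mapre2 fell inside the range of Mapre3, so the order of these neighbours was not resolved.

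Mapt had 131 and 116 reads, 158 ± 2.51 CPM (2250 bases). That length is of Mapt-203, whereas Mapt-204, the transcript that led the Mapt reads, has 5253 bases. Map2 had 71 and 83 reads, 99.0 ± 17.8 CPM (6258 bases). Map1s, the short member of the MAP1 family, had 61 and 78 reads, 89.6 ± 21.6 CPM (3314 bases), and Map6 had 60 and 62 reads, 78.2 ± 7.28 CPM (3430 bases). The ranges of Map2 and Map1s overlapped, as did those of Map1s and Map6. Map1a, which binds mature dendritic and axonal microtubules, had 56 and 43 reads, 63.0 ± 7.34 CPM (11825 bases). Map1b, known from growing axons of the developing brain, was lowest in both libraries, with 32 and 32 reads, 41.0 ± 2.87 CPM (11808 bases). That rank counts only reads assigned to the gene's own strand. Models classed as antisense to Map1b held 735 and 739 further reads, whose strand no splice site gives, as described further down.

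**Figure D1:**
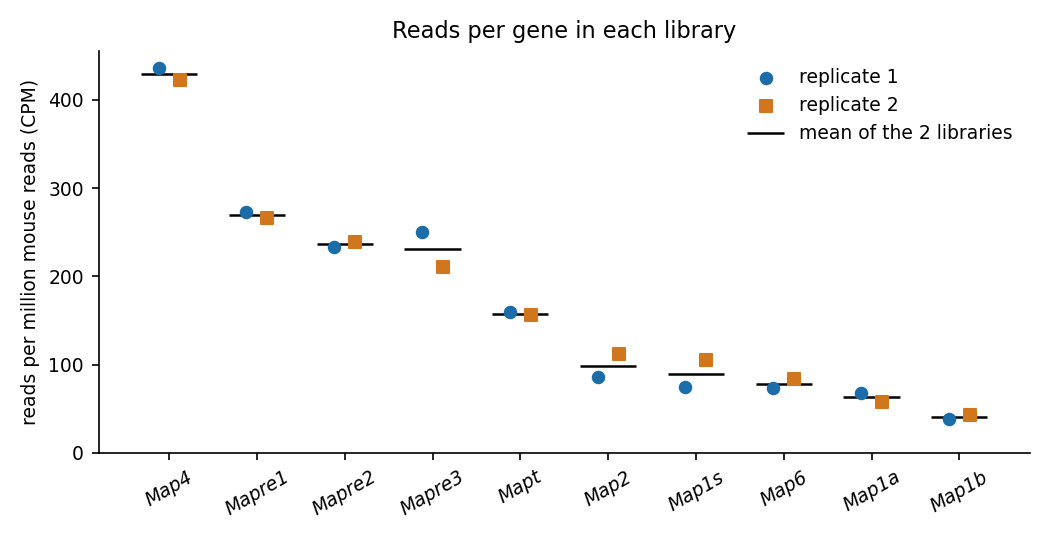
Reads per 1000000 mouse reads (CPM, vertical axis) of each gene in replicate 1 (circles) and replicate 2 (squares), with the mean as a line. Map4 lies above all others in both libraries at 429 CPM on average, and Map1b lies lowest at 41.0 CPM. The Map4 level counts every model, with or without the exons of the microtubule-binding repeats. Reads of models classed as antisense are left out.

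Between the libraries, no member passed Fisher's exact test (two-sided, Benjamini-Hochberg adjusted over 8875 genes, threshold 0.05), and no member had an unadjusted p under 0.05. Over all genes, 1.58% were called (140 genes), and 911 had an unadjusted p under 0.05. The lowest adjusted p among the members by this exact test was 0.488, for Map1s, which was higher in replicate 2 by 0.50 on the log2 scale (unadjusted p = 0.0504). The members' log2 ratios of replicate 2 to replicate 1 ran from -0.25 (Mapre3) to 0.50 (Map1s), 5 above 0 and 5 below, with a median of 0.0011 against 0.012 over all genes tested. With genomic models left out, Map1a and Map2 were both called, where 2.06% of all genes tested were (170 of 8256). With incomplete matches left out the same 2 were called, where 2.33% were (192 of 8234). The class that their 3′-end reads received differed between the libraries, as described further down.

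Other genes that act on microtubules were read from 4 lists. Of their 61 genes, 59 had reads, 51 were tested and none was called, against the 1.58% over all genes. Tppp was called with genomic models left out, and Clip3 and Tppp with incomplete matches left out. The lists' median log2 ratios were -0.030 for other lattice-binding proteins and doublecortins (11 tested), 0.29 for plus-end and minus-end partners (16 tested), 0.018 for kinases and phosphatases that act on tau and related proteins (19 tested) and 0.074 for severing and depolymerising proteins (5 tested). Map1lc3b, a light chain relative that works in autophagy, was at 578 ± 18.3 CPM (n = 2) and Map7d1, a kinesin-binding lattice protein, at 344 ± 28.3 CPM. Dctn1, the large dynactin subunit, was at 323 ± 12.7 CPM and Clip3 at 106 ± 2.87 CPM. The protein phosphatase 2A scaffold Ppp2r1a and its catalytic subunit Ppp2ca, which remove phosphate from tau, were at 1366 ± 26.4 and 930 ± 32.5 CPM, each above any of the 10 members in both libraries. Spast, which encodes the severing enzyme spastin, was at 46.2 ± 6.85 CPM. Of the list genes, Map7d3 and Kif2b had no read in either library.

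Tau, MAP2 and MAP4 each have an alternative exon of 93 bases that encodes one of the microtubule-binding repeats; leaving it out removes a repeat and keeps the reading frame. In tau it is exon 10, and transcripts with it are called 4R and those without it 3R. The coding strand of the Map2 and Map4 exons is given because they are related in sequence and were used at different rates, with the bases they share in capitals (GENCODE M21 transcripts, mm10, both on the + strand).
Map2, chr1:66431527-66431619: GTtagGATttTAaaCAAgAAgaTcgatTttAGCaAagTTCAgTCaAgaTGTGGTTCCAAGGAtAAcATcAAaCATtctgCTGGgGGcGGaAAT
Map4, chr9:110072613-110072705: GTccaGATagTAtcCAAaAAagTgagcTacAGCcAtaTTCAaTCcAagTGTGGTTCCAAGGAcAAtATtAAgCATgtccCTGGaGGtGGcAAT
These exons share 59 of 93 bases (63.4%). By place in the codon, 22 of 31 bases at position 1, 25 of 31 at position 2 and 12 of 31 at position 3 were shared.

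The repeat exon was in most reads of Mapt and Map4 and in few reads of Map2. Mapt exon 10 was present in 75 of 92 reads in replicate 1 and 67 of 85 in replicate 2 that joined its neighbours, 80.2% ± 1.91 (SD, n = 2). The Map4 exon was present in 84 of 111 and 64 of 81 reads, 77.3% ± 2.36. The Map2 exon was present in 6 of 36 and 2 of 22 reads, 12.9% ± 5.36, so most Map2 reads over this site lacked the repeat. The Wilson 95% intervals of Map2 (7.87 to 31.9% and 2.53 to 27.8%) lay below those of Mapt (72.4 to 88.1% and 69.0 to 86.2%) and of Map4 (66.9 to 82.7% and 68.9 to 86.5%) in both libraries, whereas the intervals of Mapt and Map4 overlapped. Intervals here and below cover counting error only, since amplified reads are not independent molecules. The Map2 rate rests on few reads: among models other than incomplete matches it was 36.7%, from 4 of 10 reads in replicate 1 and 1 of 3 in replicate 2.

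**Figure D2:**
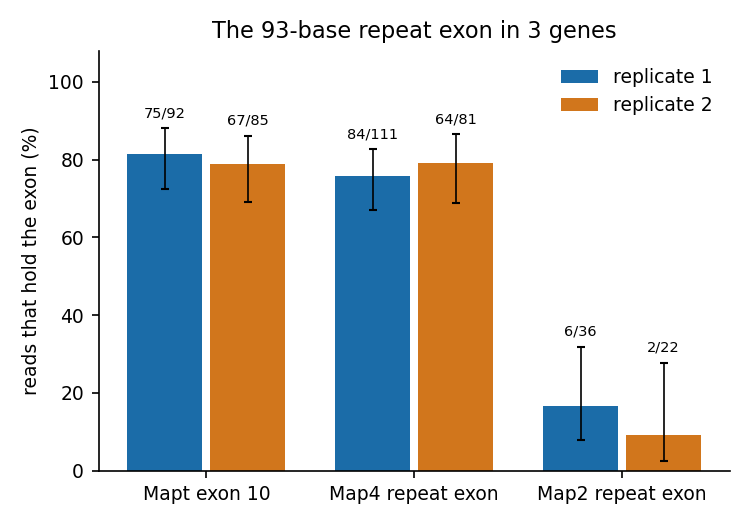
Share of informative reads that hold the 93-base repeat exon (vertical axis, %) in Mapt, Map4 and Map2, for replicate 1 (blue) and replicate 2 (orange). Whiskers are Wilson 95% intervals and the fractions are reads with the exon over informative reads; the Map2 bars reach 16.7% and 9.09%, while those of Mapt and Map4 lie between 75.7% and 81.5%.

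The N-terminal end of tau carries 2 further alternative exons of 87 bases each, exons 2 and 3, which give the 0N (neither), 1N (exon 2) and 2N (both) forms. They are shown because the forms below are named from them (GENCODE M21, mm10, + strand).
Exon 2, chr11:104287123-104287209: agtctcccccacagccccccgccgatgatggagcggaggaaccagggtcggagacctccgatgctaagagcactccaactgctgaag
Exon 3, chr11:104289908-104289994: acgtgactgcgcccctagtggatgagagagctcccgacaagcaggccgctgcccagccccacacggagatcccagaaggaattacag
Of the reads that joined exon 1 to exon 4, 66 of 83 in replicate 1 and 58 of 73 in replicate 2 had neither exon, 79.5% ± 0.0467 (SD, n = 2). Exon 2 alone was in 11 and 9 of these reads, 12.8% ± 0.654, and both exons were in 6 and 6, 7.72% ± 0.700. Exon 3 without exon 2 was in 0 of 83 and 0 of 73. The order 0N, 1N, 2N was the same in both libraries, but the Wilson intervals of 1N (7.56 to 22.2% and 6.62 to 21.8%) and 2N (3.36 to 14.9% and 3.82 to 16.8%) overlapped.

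A single long read shows both choices at once, and 81 and 73 Mapt reads did. The 0N4R form made up 52 and 42 of them, 60.9% ± 4.71 (SD, n = 2). The 0N3R form followed with 13 and 16 reads, 19.0% ± 4.15. The 1N4R form had 8 and 9 reads, 11.1% ± 1.73, and the 2N4R form had 6 and 5, 7.13% ± 0.395. Forms with an N-terminal insert and 3 repeats were rare: 1N3R had 2 and 0 reads and 2N3R had 0 and 1. Exon 10 was skipped in 13 of 65 and 16 of 58 reads without an insert, and in 2 of 16 and 1 of 15 reads with one. The intervals of these shares overlapped (12.1 to 31.3% and 17.8 to 40.2% without an insert, 3.5 to 36.0% and 1.19 to 29.8% with one). A link between the choices was not tested, and overlap of intervals does not decide it. In rodents tau passes from 3R to 4R forms in the first weeks after birth; a single age was sampled here.

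**Figure D3:**
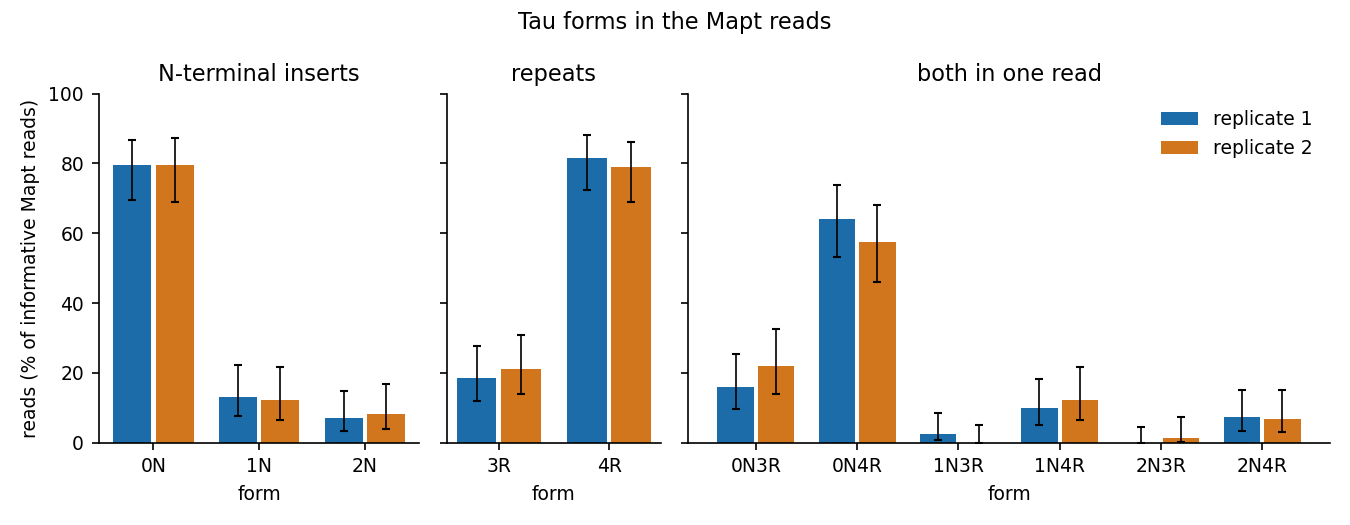
Share of informative Mapt reads (vertical axis, %) by N-terminal insert, by repeat number and by both in the same read, for replicate 1 (blue) and replicate 2 (orange), with Wilson 95% intervals. The 0N4R form leads in both libraries at 64.2% and 57.5%, and 0N3R is next at 16.0% and 21.9%.

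The other tau exons were nearly constant. Exon 4 was in 83 of 85 and 75 of 75 reads. Exon 4A (711 bases), which marks the big tau of peripheral neurons, was in 0 of 84 and 0 of 76 reads, which allows a share of up to 3.57% and 3.95%. Exon 6 was in 0 of 84 and 1 of 76 reads, and exon 8 in 1 of 90 and 0 of 79. Exons 4A, 6 and 8 aside, enough reads covered 10 internal tau exons, of which 3 varied (inclusion of 5 to 95%) and 7 were above 95%. By transcript, Mapt-204, an annotated 10-exon transcript of the 0N4R form, held 48 of 80 and 40 of 71 reads in annotated or new models, 58.2% ± 2.59. A 9-exon chain with the same exons except exon 10 held 13 and 16 reads, 19.4% ± 4.44, and was classed as a new combination. No annotated transcript with reads lacked exon 10, so annotated models alone gave 54 of 54 and 44 of 44 reads with it. Annotated models alone gave 10.1% for exon 2, in place of 20.8% ± 1.15 over all spliced models.

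Map2 reads came mainly from the 3′ end. The start and the stop codon were both reached by 5 of 71 and 1 of 83 reads, and the stop codon alone by 60 and 71. An exon of 3741 bases (chr1:66412407-66416147) separates the large dendritic MAP2A and MAP2B from the small MAP2C. It was present in 2 of 9 and 1 of 2 informative reads. Models that begin inside this exon were not counted, and the leading one, of 9 exons, had 3 and 2 reads. The ratio of large to small MAP2 is left unresolved at this depth. The most frequent new Map2 chain, with 10 exons including the repeat exon, had 4 and 1 reads. One-exon reads inside the last exon made up 27 of 71 reads in replicate 1, all classed as genomic, and 49 of 83 in replicate 2, all classed as incomplete matches.

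Map4 reads fell into separate blocks along the gene. In 189 of 358 reads of replicate 1 and 173 of 314 of replicate 2, the model ended before the annotated start of Map4-204 at chr9:110052048, 53.9% ± 1.63 (SD, n = 2). In 160 and 133 reads the model began at or after that start, 43.5% ± 1.65. Models that crossed that start had 9 and 8 reads, 2.53% ± 0.0239, of which 7 and 5 began before the end of Map4-206. In annotated or new models alone, 171 of 256 and 153 of 211 reads ended before that start, 69.7% ± 4.04. In these models 79 and 51 reads began at or after it, 27.5% ± 4.73. The counts over all models include incomplete matches, whose first base need not be where the transcript began. The first block was led by Map4-206, a 4-exon transcript with a coding sequence of 297 bases that ends 46308 bases before the second block; it held 158 and 149 reads, 66.2% ± 6.29 of those in annotated or new models, and contains none of the repeat exons. The second block holds the exons of the microtubule-binding repeats, and among its annotated or new models the leading one was a new 9-exon chain that begins at the Map4-204 start and skips the 222-base and 190-base exons of that transcript, with 30 and 21 reads. One-exon models at the 3′ end of the gene held more, 31 in replicate 1 and 32 in replicate 2. Only 2 reads in each library covered both the start and the stop codon of the longest coding transcript, Map4-201. Models whose last intron passes over that stop codon cannot be among them.

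The genome just before the second Map4 start is shown because 49 of 85 and 35 of 67 reads with the repeat exon belong to models that begin exactly at that start. RefSeq (GRCm38.p6) places the start at base 110052021, and the 250 bases before it, with each CG dinucleotide in capitals, read as follows.
Map4 upstream, chr9:110051771-110052020, + strand: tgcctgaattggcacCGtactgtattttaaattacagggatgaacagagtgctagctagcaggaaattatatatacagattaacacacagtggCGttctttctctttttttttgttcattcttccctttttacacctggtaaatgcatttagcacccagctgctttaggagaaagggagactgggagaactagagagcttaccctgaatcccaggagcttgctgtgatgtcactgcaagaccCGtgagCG
The stretch holds 4 CG dinucleotides and is 43.6% G or C. Over the 32851 promoters of the RefSeq table, the same 250 bases held a median of 6 and 52.4%; 37.8% of promoters had fewer CG dinucleotides and 20.1% a lower G and C share.

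Apart from the repeat exon, 3 Map4 exons varied. An exon of 222 bases was in 16 of 86 and 10 of 58 reads, 17.9% ± 0.964 (SD, n = 2), an exon of 114 bases in 17 of 111 and 12 of 81, 15.1% ± 0.354, and an exon of 190 bases in 50 of 121 and 42 of 100, 41.7% ± 0.479. The 222-base and 114-base exons keep the reading frame and the 190-base exon does not. In each the libraries differed by less than their Wilson intervals. Over annotated models alone the 114-base exon was in 1 of 6 and 2 of 3 reads.

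Across all genes, 2272 variable exons were compared between the libraries by Fisher's exact test (two-sided, Benjamini-Hochberg, threshold 0.05), and 0.044% were called (1 exon; 96 had an unadjusted p under 0.05). None of the 9 variable member exons was called, 4 in Map4, 3 in Mapt and 1 each in Map2 and Map6. Map1s, Mapre1, Mapre2 and Mapre3 had 5 to 6 internal exons deep enough to judge, none of them variable in inclusion. Map1a and Map1b had no exon with enough reads. Inclusion counts an exon as skipped only where an intron spans it, so use of another splice site within an exon was not tested. The fourth exon of Mapre3 has such a site, as described further down.

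Map6 reads mostly followed Map6-201, with 33 of 48 and 43 of 55 reads in annotated or new models, 73.5% ± 6.67 (SD, n = 2). Map6-204, which runs on past the 197-base exon to an earlier end and has a coding sequence of 1704 bases in place of 2718, had 8 and 8 reads, 15.6% ± 1.5. That 197-base exon was in 34 of 39 and 44 of 47 reads that reached the last exon, 90.4% ± 4.55. Leaving it out, as Map6-203 does, shifts the reading frame.

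The MAP1 genes differed in how much of the transcript the reads covered. Map1s-201, of 3314 bases, held 38 of 48 and 50 of 61 reads, 80.6% ± 1.98 (SD, n = 2), and 48 of 61 and 61 of 78 Map1s reads reached both the start and the stop codon. Map1a and Map1b, of 11825 and 11808 bases, had none that did, 0 of 56 and 0 of 43 reads for Map1a and 0 of 32 and 0 of 32 for Map1b. Map1a reads were 3′-end fragments: 55 of 56 and 33 of 43 reached the stop codon, and the leading spliced model covered the last 3 exons with 18 and 13 reads. Map1b reads lay at both ends of the gene. A 5-exon model from the first exon into the 6490-base exon had 8 and 16 reads, and one-exon models over the last exon had 18 and 15.

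Among the end-binding genes, Mapre1 was the simplest. Mapre1-201 held 201 of 207 and 180 of 186 reads in annotated or new models, 96.9% ± 0.231 (SD, n = 2). Mapre2 was read from different first exons. Mapre2-201 had 102 and 112 reads, 74.3% ± 2.72, and Mapre2-209, which starts further upstream and has a coding sequence of 852 bases in place of 978, had 35 and 30 reads, 22.6% ± 3.12. Mapre3 was divided between Mapre3-201, with 96 and 72 reads (53.6% ± 0.424), and Mapre3-202, with 67 and 47 (36.2% ± 2.00). The coding sequences of these Mapre3 transcripts have 843 and 798 bases and differ by the last 45 bases of the fourth exon, which only Mapre3-201 keeps (GENCODE M21, mm10, + strand).
Mapre3-201, chr5:30863361-30863405: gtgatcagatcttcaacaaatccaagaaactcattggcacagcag
The 45 bases are a multiple of a codon, so both transcripts stay in frame. For Mapre1, Mapre2 and Mapre3 the leading transcript was the same in both libraries, and its share differed by less than the Wilson intervals.

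The share of reads whose model reached both the start and the stop codon ordered the genes, with the codons taken from each gene's longest complete coding sequence. It was 93.8% ± 0.134 (SD, n = 2) for Mapre1, 85.8% ± 1.54 for Mapre3, 78.4% ± 0.342 for Map1s, 70.4% ± 7.64 for Map6, 63.6% ± 0.307 for Mapt and 59.9% ± 6.65 for Mapre2. It was 4.12% ± 4.13 for Map2, 0.598% ± 0.0554 for Map4, and 0 for Map1a and Map1b. The longest complete coding sequences of these last 4 genes have 3375 to 9042 bases, against 804 to 2919 bases in the other 6. For Mapt that sequence has 2247 bases, against 1116 in Mapt-204, which led its reads. Coding length as a cause of this order was not tested. Reads of an annotated transcript with other codons do not count here. The 158 and 149 reads of Map4-206 end before the Map4-201 stop codon. The 35 and 30 reads of Mapre2-209 lack the Mapre2-201 start codon. Nor do the 30 and 21 reads of the new 9-exon Map4 chain count. It begins after the Map4-201 start codon, and its last intron passes over that stop codon.

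**Figure D4:**
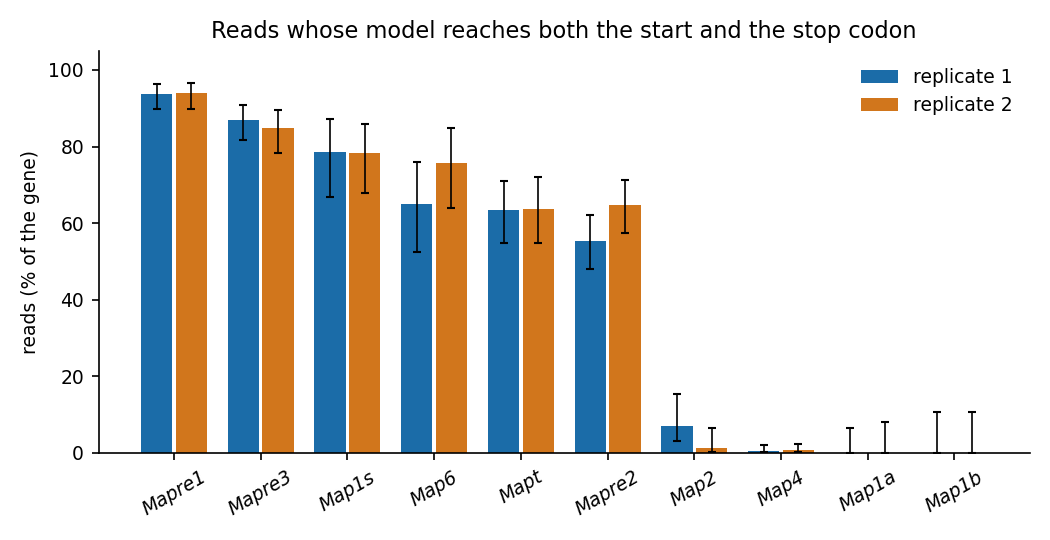
Share of each gene's reads whose model reaches both the start and the stop codon of its longest complete coding sequence (vertical axis, %), for replicate 1 (blue) and replicate 2 (orange), with Wilson 95% intervals. Mapre1 stands at 93.8% and 93.9%, while Map2, Map4, Map1a and Map1b lie at or near 0.

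The members had fewer reads in annotated transcripts than genes at large, 59.1% ± 0.474 against 71.3% ± 1.08 (SD, n = 2), and more in incomplete matches, models that are part of an annotated transcript, 20.7% ± 0.646 against 10.5% ± 0.228. The share ran from 90.3% ± 0.832 in Mapre1 to 0 of 56 and 0 of 43 reads in Map1a. With annotated transcripts alone, the level fell to 62.4 CPM for Mapt, 206 CPM for Map4, 58.1 CPM for Map1s, 1.28 CPM for Map2, 1.83 CPM for Map1b and 0 for Map1a, and Mapre1, at 243 CPM, led in place of Map4.

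In 4 genes, one-exon reads over the last exon were named differently in the libraries. In Map1a the 27 such reads of replicate 1 were incomplete matches and the 25 of replicate 2 were genomic. In Map4 the 31 of replicate 1 were incomplete matches and the 32 of replicate 2 were genomic, and in Mapre3 the same held for 17 and 15 reads. Map2 had the reverse, 27 genomic in replicate 1 and 49 incomplete in replicate 2. In Mapt the classes matched, with 21 and 18 incomplete and 7 and 6 genomic. In Mapre2 (37 and 17), Map1b (18 and 15), Map6 (4 and 4) and Map1s (1 and 1) all such reads were genomic in both libraries, and in Mapre1 all 10 of replicate 1 and 4 of 5 of replicate 2 were. Gene levels that count every class do not depend on this naming.

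Map1b stood apart on the opposite strand. Models classed as antisense to it held 735 reads in replicate 1 and 739 in replicate 2, against 32 and 32 sense reads, an antisense share of 95.8% ± 0.0153 (SD, n = 2) and an antisense level of 944 ± 69.7 CPM. The ratio of antisense to sense reads was 23.0 and 23.1. Antisense Map1b reads outnumbered the sense reads of each of the 10 genes in both libraries, Map4 included. Map1b ranked 7 by antisense reads among 8844 genes with any; of 6545 genes with at least 20 reads of both kinds together in each library, 15 (Map1b included) had a share at least as high, 5.06% had a share over 50%, and the median was 2.04%.

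Of these reads, 659 and 691 belonged to a one-exon model on the + strand from chr13:99421446 to 99424415 (99424414 in replicate 2). It lies within the last exon of Map1b, which is on the - strand, beyond the stop codon at 99425806, opposite the 3′ untranslated region. A further model at chr13:99507061-99513618, over an internal exon of 102 bases and introns beside it, had 64 and 41 reads. Its first base, 99507061, is also where Map1b-204, an annotated 2-exon transcript with 3 and 0 sense reads, ends. The main antisense model likewise begins at 99421446, the base where the last exon of Map1b-201 ends. No antisense model over Map1b was spliced, so no splice site gives its strand, and no source used here states whether counting used strand. Whether these models end beside A-rich genome, where priming can begin inside a molecule, was not tested. The sense one-exon models over the same last exon, 18 and 15 reads, overlap the main antisense model, so reads of either strand there cannot be told apart if strand was not recorded.

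**Figure D5:**
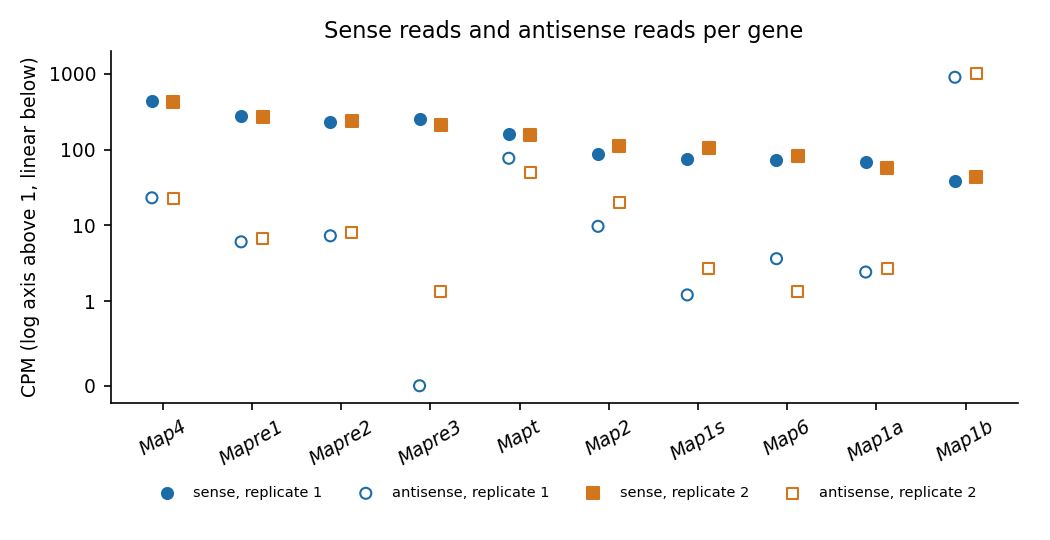
Sense reads (filled) and antisense reads (open) of each gene in CPM, for replicate 1 (circles) and replicate 2 (squares), on a vertical axis that is logarithmic above 1 CPM and linear below. Among the 10 genes antisense reads exceed sense reads only in Map1b, at 895 and 993 CPM against 39.0 and 43.0 CPM.

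Mapt was next, with 63 and 37 antisense reads, 28.3% ± 5.86 (SD, n = 2) of its reads on both strands. Its leading antisense model had the same ends, chr11:104327972-104330068, as a one-exon sense model of the last exon: 26 and 15 antisense reads against 21 and 18 sense reads. Map2 had 8 and 15 antisense reads (12.7% ± 3.66) and Map4 19 and 17 (5.09% ± 0.0680). Antisense shares in the other 6 genes averaged from 0.316% in Mapre3 to 3.95% in Map1a. Between the libraries, antisense shares were compared in 2776 genes by Fisher's exact test (two-sided, Benjamini-Hochberg, threshold 0.05), and 0.612% were called (17 genes; 194 had an unadjusted p under 0.05). None of the 6 members tested was called; the lowest adjusted p was 0.809, for Mapt.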

How the data were processed

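The deposited tables give raw read counts per transcript model in each library, per the file headers, with no normalization; other deposited columns give each model's exon number and length. The deposited annotation gives exon positions on mm10, and the authors annotated against GENCODE M21, per the text deposited beside the tables. The aligner and the transcript caller are each not given in the sources used here.

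Reads were summed per gene over all model classes, and divided by mouse reads (ERCC left out) to give CPM. No separate filter for SIRV sequences was applied. An exon's inclusion is the reads of spliced models that hold it over those plus reads whose intron spans it. Annotated and new models form the denominator of transcript shares. Genes with at least 20 reads, exons with 20 in each library and antisense shares with 20 reads in each library and 5 antisense reads were compared by Fisher's exact test (scipy 1.17.1), since edgeR has no residual degrees of freedom with 1 library a side. Log2 ratios, replicate 2 over replicate 1, add 0.5 reads. The test was tried on simulated counts with counting error only, so its behaviour under a wider spread was not tested. Between these libraries the chi-square per degree of freedom over the genes tested was 1.83, more than counting error alone gives. Depth was 821324 and 743862 mouse reads, which sets a floor of 3 reads at 3.65 and 4.03 CPM. Alternative library sizes came from edgeR 4.0.16 and DESeq2 1.42.0.

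The members and lists were chosen with earlier results of these data known. Named were all members, of each list the 2 genes with the most reads and any called, variable exons with 20 reads in each library, and transcripts with at least 10% and 5 reads. Mog, the chain counts of Map1a, Map1b and Map2, and the further antisense models were chosen after their values were seen. Promoter entries matched 7 of the 10 genes. One list gene and one exon sequence that these rules would print are not reported here.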

Additional observations from a re-analysis of the deposited data

How the results depend on the processing

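With edgeR TMM or DESeq2 size factors, no member and no list gene was called, and with annotated transcripts alone 73 genes were called and no member. The members' summed level was 1002 CPM with annotated transcripts alone, 1532 CPM without genomic models and 1344 CPM without incomplete matches. Without genomic models 170 of 8256 genes (2.06%) were called, with 2 members (Map1a and Map2) and 1 list gene (Tppp) among them. Without incomplete matches, for calls an alternative added after seeing the data, 192 of 8234 genes (2.33%) were called, with the same 2 members and 2 list genes (Clip3 and Tppp); each of these settings drops the one-exon 3′-end reads of Map1a and Map2 from 1 library only. With annotated transcripts alone as the denominator, Mapt-204 held 89.9%. Exons called over all genes numbered 4 without incomplete matches, 0 with at least 10 reads in each library (123 had an unadjusted p under 0.05 by Fisher's exact test) and 2 with at least 50; no member exon was called in any of these. Mapt exon 10 was at 100% in annotated transcripts. Antisense shares called numbered 28 with models over an exon of the gene and 2 with spliced models, and the Map1b share was 95.8% and 0%. Leaving out 1 library each, an alternative added after seeing the data for Map1b antisense, gave 1694 to 1695 CPM for the members, 58.8 to 59.5% annotated, 56.3 to 60% for Mapt-204, 78.8 to 81.5% for exon 10 and 95.8 to 95.8% for Map1b antisense. No paired analysis was possible because there is 1 group. Map1a and Map1b had the fewest reads, 32 to 56 a library, and no exon deep enough to judge.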
